A study of Mus musculus with 41 samples.

Results

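Cell cycle and proliferation genes were followed mouse by mouse in tibia. The set held 40 genes, chosen by gene symbol as genes of S phase and mitosis, of 43346 genes in the count table. The rule used no measured value, but the list was drawn up with earlier results of these data known. All 40 were matched by symbol and all 40 passed the filter on low counts, so that each was among the 19292 genes tested. RNA had been sequenced from tibiae of female INK-ATTAC mice on a C57BL/6 background, after centrifugation of the bones to remove marrow. Every mouse, controls included, carried the INK-ATTAC transgene, in which a fragment of the Cdkn2a (p16) promoter drives a caspase that the drug AP20187 (AP) switches on. The groups were 12 young mice (6 to 12 months old by the sample labels, which also place them in the vehicle group, and 6 months by the study's methods), 13 old mice treated with vehicle and 16 old mice treated with AP. The old mice were injected 2 times a week for 4 months from the age of 20 months, with AP at 10 mg per kg in the treated group. The transgene acts only in cells in which the p16 promoter fragment is active, and no cell type was separated out, so that each value is an average over every cell left in the tibia sample, which the study names as the diaphysis (the shaft of the bone).

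A dividing cell makes its cell cycle RNAs in waves. Transcription factors of the E2F family switch on the genes of DNA synthesis as a cell leaves G1, and the genes of mitosis follow under complexes that bind the promoter elements called CHR and CCAAT, with Foxm1 among their activators. Bone itself holds few dividing cells, since osteocytes and mature osteoblasts have left the cycle, whereas the marrow inside it makes red cells, neutrophils and B cells throughout life by constant division. Senescent cells are those that have left the cycle for good, and p16 (Cdkn2a) and p21 (Cdkn1a) are the kinase inhibitors that hold them out of it.

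Libraries held 37028959 to 75942717 counts (median 47774880). Levels are given in CPM, the reads of a gene scaled by the TMM-adjusted size of its library. Cdkn2a was read at 0.160 to 1.18 CPM in young mice (median 0.587), at 0.394 to 7.37 CPM in old vehicle mice (median 2.20) and at 0.472 to 7.29 CPM in old AP mice (median 1.10), and the ranges of the 3 groups overlapped. Markers of bone cells were present in every mouse. The 8 osteoblast markers summed to at least 3077 CPM and the 6 osteocyte markers to at least 283 CPM. Markers of marrow and muscle were present as well, at 1038 to 10796 CPM for the 10 erythroid markers, 2882 to 18363 CPM for the 10 early neutrophil markers, 59.0 to 408 CPM for the 10 early B cell markers and 5008 to 73098 CPM for the 5 muscle markers. In old vehicle mice the highest medians of the early neutrophil list were those of Ngp (3324 CPM), Ltf (2327 CPM) and Camp (1308 CPM), beside 894 CPM for Mpo. In the early B cell list they were those of Ebf1 (33.5 CPM), Cd79a (31.9 CPM) and Cd79b (28.7 CPM), beside 5.10 CPM for Rag1. The sums of these lists therefore weigh these genes most and do not measure the earliest stages alone. Old AP mouse 18 stood apart from the other mice of its group in its T cell markers, which summed to 476 CPM against a group median of 63.8 CPM, old AP mice 18 and 19 had osteocyte sums of 283 and 289 CPM against a group median of 1495 CPM, with 1019 CPM the next lowest, and old vehicle mouse 16 had the lowest erythroid, early neutrophil and early B cell sums of all 41 mice. For the comparisons of groups and the relations with marker levels, results are given below with and without the mice that decide them. The fits with a marker level as a covariate were run on all 41 mice only.

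Per kilobase of exon, the highest mean levels over the 41 mice were those of Mki67, which encodes the proliferation marker Ki-67, at 45.8 CPM per kb, and of Pcna, the sliding clamp of DNA polymerase, at 43.4 CPM per kb. Rrm2 and Rrm1, the subunits of ribonucleotide reductase, followed at 38.9 and 33.9 CPM per kb. The lowest were Melk, a mitotic kinase, at 3.78 CPM per kb and Cenpf, a large kinetochore protein, at 3.18 CPM per kb. Neighbours in this order were far closer to each other than mice of one group were. The highest mouse exceeded the lowest by 1.68-fold (Rrm1) to 3.02-fold (Birc5) in the young group, by 1.97-fold (Rrm1) to 4.52-fold (Mki67) in the old vehicle group and by 2.64-fold (Pcna) to 5.20-fold (Mki67) in the old AP group. The spread between old AP mice was the widest of the 3 groups, with a median over the members of 3.73-fold, against 2.70-fold in old vehicle mice and 2.41-fold in young mice.

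The same few mice were at the ends of almost every gene. Young mouse 39 was the highest young mouse for 37 of the 40 genes, old AP mouse 19 was the highest old AP mouse for 37, and old vehicle mouse 2 was the highest old vehicle mouse for 29. At the other end, old vehicle mouse 16 was the lowest of its group for 22 genes and mouse 20 for 16, and old AP mouse 9 was the lowest of its group for 24 genes and mouse 27 for 13. In 10 mice, 6 of them old AP, 2 old vehicle and 2 young, all 40 genes lay above their own mean over the 41 mice. In 15 mice, 5 of each group, none of the 40 did. With a score that averaged the members' z-scores of log2 CPM in each mouse, old AP mice lay between -1.12 and 2.47 (median 0.41), old vehicle mice between -1.71 and 0.87 (median -0.01) and young mice between -1.13 and 1.15 (median -0.09). The 3 groups overlapped, and 7 of the 10 highest scores belonged to old AP mice, with old AP mice 19, 17, 18 and 25 in the first 4 places.

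**Figure D1:**
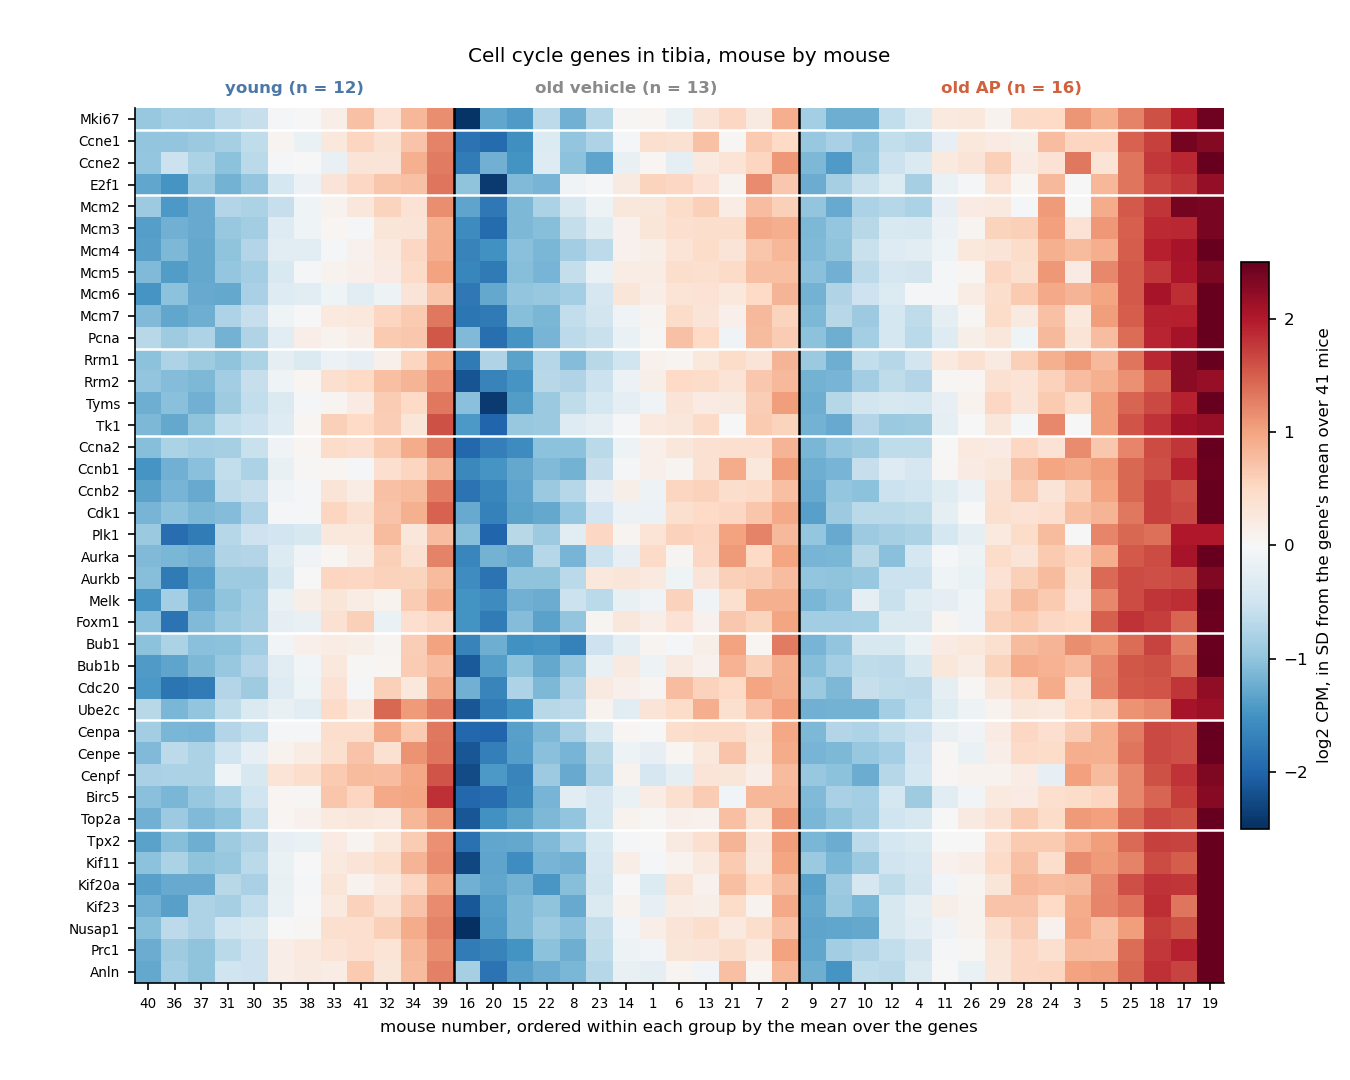
Each column is 1 mouse (young n = 12, old vehicle n = 13, old AP n = 16, ordered within a group by the mean over the genes), each row 1 of the 40 genes in order of role, and the colour is log2 CPM in standard deviations from the gene's mean over all 41 mice. Columns are nearly of one colour from top to bottom, each group runs from mice with low levels to mice with high levels, and the deepest red columns are old AP mice 19, 17, 18 and 25.

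After the mean of each group was removed from log2 CPM, the correlation between 2 members over the 41 mice had a median of 0.951 over 780 pairs, beside a median of -0.011 over all pairs of the 19292 genes. The points share libraries and scaling, and the values are a description. The lowest pair was Ccne2, a cyclin of the G1 to S step, with the mitotic kinase Plk1 at 0.816, and the highest was Top2a, the topoisomerase that untangles chromosomes, with the spindle motor Kif11 at 0.993. Every one of the 780 pairs was above 0.5. Genes of S phase and genes of mitosis correlated nearly as closely across both sets as within each, and a difference between the sets was not tested. The median was 0.960 among the 14 genes of the G1 to S step, replication and nucleotide supply. It was 0.955 among the 26 other members, Mki67 included, and 0.946 between both sets. Ccne2 (0.918), E2f1 (0.919), the transcription factor at the head of the S phase wave, and Plk1 (0.924) had the lowest median correlation with the other members, and Tpx2, a spindle assembly factor, had the highest (0.969). Within one group at a time, the median over pairs was 0.962 in young mice, 0.932 in old vehicle mice and 0.971 in old AP mice.

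Because the members moved together between mice, their promoters are shown here for Mki67, for Top2a as a gene of mitosis and for both members that passed the test in a comparison below (Mcm6 and Bub1b). The sequences are from RefSeq (assembly GRCm38.p6), and 33 of the 40 members had an entry. Each line gives the 120 bases before the first RefSeq start listed for the gene, 5′ to 3′ on the gene's own strand. That start was the same as the gene's start in the count table for Mki67, Top2a and Bub1b and lay 41 bases upstream of it for Mcm6. It was the same for 12 of the 33 members, upstream for 7 and downstream for 14, within 100 bases in 29 of 33. Capitals mark matches, on either strand, to CHR (TTTGAA or TTCGAA), to CCAAT and to the E2F core (TTCCCGC or TTGGCGC or TTCGCGC or TTGCCGC). A match to E2F and one to CCAAT can overlap.
Mki67, chr7:135716380-135716499, minus strand: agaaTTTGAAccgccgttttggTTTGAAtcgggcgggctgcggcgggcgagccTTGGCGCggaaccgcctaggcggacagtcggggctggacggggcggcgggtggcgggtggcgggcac
Top2a, chr11:99024190-99024309, minus strand: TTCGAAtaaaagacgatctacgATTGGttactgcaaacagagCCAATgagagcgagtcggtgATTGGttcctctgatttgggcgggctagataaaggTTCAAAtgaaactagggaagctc
Mcm6, chr1:128359706-128359825, minus strand: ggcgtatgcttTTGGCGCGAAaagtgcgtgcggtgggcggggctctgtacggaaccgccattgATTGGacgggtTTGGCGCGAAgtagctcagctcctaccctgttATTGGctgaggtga
Bub1b, chr2:118598091-118598210, plus strand: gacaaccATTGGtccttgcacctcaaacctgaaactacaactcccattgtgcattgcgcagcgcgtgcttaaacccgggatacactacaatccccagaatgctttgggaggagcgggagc
Top2a showed 3 CCAAT matches together with 2 CHR matches, Bub1b held 1 CCAAT match, Mki67 held 2 CHR matches and an E2F match, and Mcm6, a subunit of the replicative helicase, held 2 CCAAT matches and 2 pairs of overlapping E2F matches. Over the 250 bases before the RefSeq start, CCAAT was found in 25 of 33 members (75.8%) against 34.5% of 27025 promoters of all genes, CHR in 10 of 33 (30.3%) against 17.4%, and E2F in 8 of 33 (24.2%) against 7.97%. All 10 members with a CHR match also held CCAAT, a combination found in 6.21% of all promoters. E2F was found in 5 of 12 genes of the G1 to S step, replication and nucleotide supply and in 3 of 21 of the others, and CHR in 2 of 12 and 8 of 21. These are matches of letters in a window, not measured binding.

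The first comparison asked whether the genes differed with age, between old vehicle and young mice. None of the 40 members passed the test, which asked for a change of more than 0.5 on the log2 scale in either direction together with an adjusted p below 0.05 (quasi-likelihood test of edgeR, p-values adjusted by Benjamini-Hochberg over all genes tested). Of all genes tested, 9.06% passed it. The members' log2 fold changes ran from -0.43 to 0.22 with a median of -0.08, beside 0.0066 for all genes, and 14 of 40 were above 0, beside 51.1% of all genes. When libraries were scaled by their total counts in place of TMM, 5 of 40 were above 0. In the 25 fits without 1 mouse the median ran from -0.12 without old vehicle mouse 2 to -0.00074 without young mouse 39, and the number above 0 from 7 (without old vehicle mouse 7 or young mouse 40) to 20 (without young mouse 39). Only 1 member, Cenpf, had an unadjusted p under 0.05, beside 31.8% of all genes. With DESeq2, 0 members passed as well, beside 9.27% of all genes. The 95% interval lay inside -0.5 to 0.5 for 24 of the 40 members, so that for the other 16 a difference of that size was not excluded at this number of mice.

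Mki67 was at 273 to 704 CPM in young mice (median 414) and at 139 to 626 CPM in old vehicle mice (median 386). The ranges overlapped over most of their length, and the log2 fold change was -0.22 (SE 0.24, adjusted p = 0.564). Top2a was at 134 to 314 CPM in young mice (median 214) and at 93.9 to 308 CPM in old vehicle mice (median 210), a log2 fold change of -0.09 (SE 0.20, adjusted p = 0.787). Both genes had nearly the same median in young and old vehicle mice. The log2 fold change was -0.11 (SE 0.19, adjusted p = 0.730) for Cdk1, the kinase that drives entry into mitosis, and 0.01 (SE 0.22, adjusted p = 0.989) for its partner Ccnb1, cyclin B1. For Mcm2, a helicase subunit, it was 0.05 (SE 0.19, adjusted p = 0.889), for Pcna -0.08 (SE 0.14, adjusted p = 0.744) and for Rrm2 -0.13 (SE 0.22, adjusted p = 0.735). The transcription factors E2f1 and Foxm1 had log2 fold changes of 0.03 (SE 0.18, adjusted p = 0.927) and 0.06 (SE 0.17, adjusted p = 0.834).

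By role, the 5 genes of the kinetochore and of chromosome structure were all below 0, with a median of -0.22, and the 7 genes of replication licensing and the fork had a median of 0.05 with 5 of 7 above 0. Cenpf was at 32.9 to 85.0 CPM in young mice (median 53.0) and at 18.6 to 62.2 CPM in old vehicle mice (median 38.4), with a log2 fold change of -0.43 (SE 0.21, unadjusted p = 0.0491, adjusted p = 0.155). Plk1 was at the other end, with a log2 fold change of 0.22 (SE 0.22, adjusted p = 0.516).

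The second comparison asked whether AP treatment of old mice went with a difference, between old AP and old vehicle mice. No member passed the test, and 14 of 19292 genes (0.0726%) did. All 40 members had a log2 fold change above 0, beside 49.4% of all genes, with a median of 0.42, beside -0.0037 for all genes. Since the members rise and fall together from mouse to mouse, the 40 fold changes are far from 40 separate observations. The unadjusted p was under 0.05 for 32 of 40 members, beside 23.9% of all genes, and the smallest adjusted p was 0.0865, for Rrm1. With DESeq2, 0 members passed too, beside 1.27% of all genes. The 2 groups overlapped in every member, a count made for the members only and so not shown to be particular to them. Between 7 (E2f1, Plk1) and 12 (Rrm1, Bub1) of the 16 old AP mice lay above the median of the old vehicle mice.

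Mki67 had the highest fold change of the members. It was at 241 to 1250 CPM in old AP mice (median 494) and at 139 to 626 CPM in old vehicle mice (median 386), and 5 of 16 old AP mice lay above every old vehicle mouse while none lay below the lowest. Its log2 fold change was 0.61 (SE 0.22, adjusted p = 0.103). Top2a was at 136 to 530 CPM in old AP mice (median 243) and had a log2 fold change of 0.47 (SE 0.19, adjusted p = 0.126). Ccnb1 was at 18.9 to 87.4 CPM in old AP mice (median 39.04) and at 15.99 to 48.7 CPM in old vehicle mice (median 30.98), with a log2 fold change of 0.54 (SE 0.20, adjusted p = 0.111). In each of these genes the medians lay closer together than the highest values did.

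Among the other anchors, Cdk1 had a log2 fold change of 0.37 (SE 0.18, adjusted p = 0.199), Foxm1 of 0.37 (SE 0.16, adjusted p = 0.149) and Rrm2 of 0.44 (SE 0.21, adjusted p = 0.183). Mcm2 (0.33, SE 0.17, adjusted p = 0.242), Pcna (0.28, SE 0.14, adjusted p = 0.191) and E2f1 (0.24, SE 0.17, adjusted p = 0.373) had smaller values. Apart from Mki67, the only gene of its role, the median by role ran from 0.38 in the mitotic cyclins and kinases, the spindle checkpoint genes and the replication genes to 0.48 in the 3 genes of the G1 to S step and the 7 genes of the spindle and of cytokinesis. Plk1 was the lowest single member at 0.18 (SE 0.20, adjusted p = 0.581). Single mice moved this comparison. Without old AP mouse 19 the median over the members was 0.32, without old vehicle mouse 16 it was 0.38, and it stayed between 0.32 and 0.47 in the 29 fits that left out 1 mouse. In 27 of those fits no member passed. Old AP mice 18 and 19 both rank among the 3 highest in the members' score and stand apart in their osteocyte sums. Without both of them the median over the members was 0.26 and all 40 members were still above 0. The unadjusted p was then under 0.05 for 2 of 40 in place of 32. Without old AP mouse 9, 4 members passed (Mcm6, Bub1, Kif23 and Kif20a), and without old vehicle mouse 2, Bub1 and Kif23 did. The share of all genes that passed rose in the same fits, from 0.0726% to 2.10% and 1.62%.

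**Figure D2:**
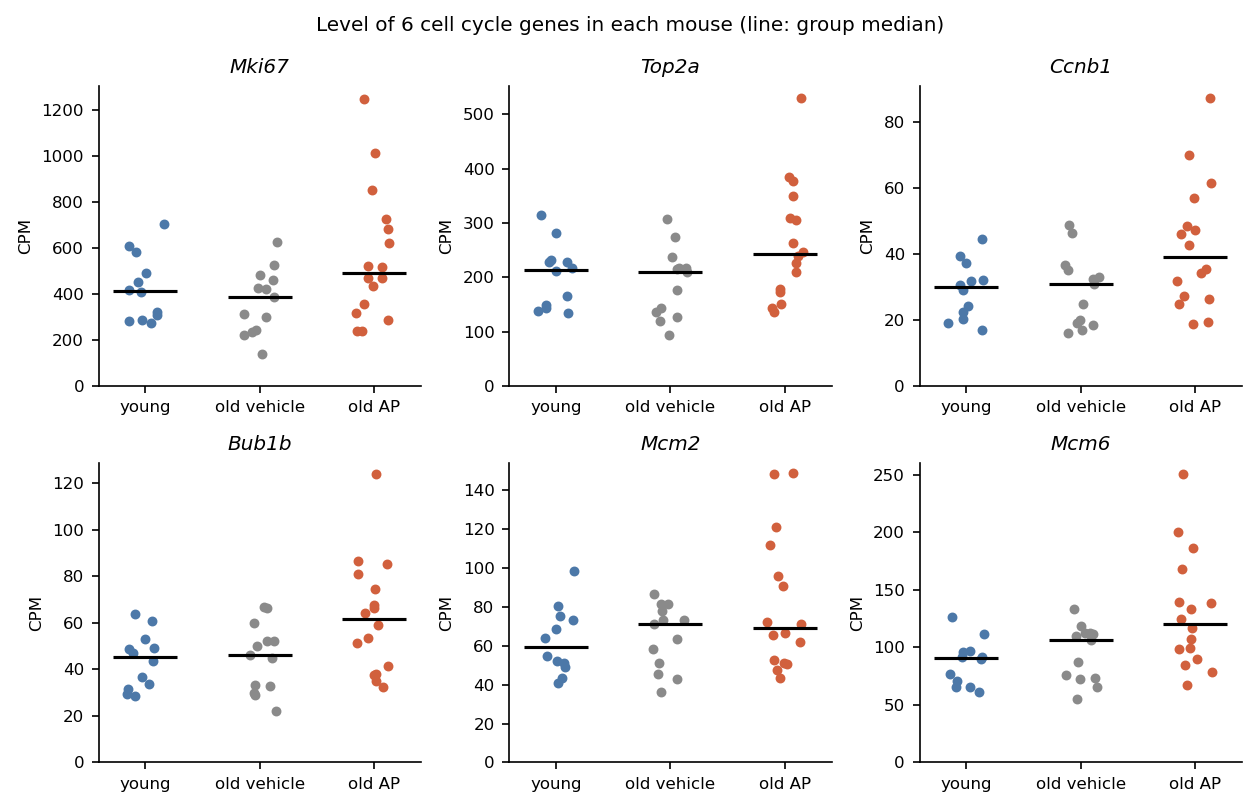
Each point is the level of 1 gene in 1 mouse in CPM (vertical axes from 0), for young (n = 12), old vehicle (n = 13) and old AP mice (n = 16), and lines are group medians. Mki67 reached 1250 CPM in old AP mice against 626 CPM in old vehicle mice, and in all 6 genes the lower part of the old AP group lies among the other groups.

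The third comparison, old AP against young mice, was the only one in which members passed the test, and both were higher in old AP mice. This comparison and the second share the old AP mice. Of 40 members 2 passed, beside 8.58% of all genes in either direction and 3.73% as higher. The share of the members, 2 of 40, was near that background. All 40 members had a log2 fold change above 0, beside 52.9% of all genes, the median was 0.36 and 16 of 40 had an unadjusted p under 0.05, beside 32.2% of all genes. Without old AP mouse 19 the median was 0.25, 39 of 40 members were above 0 and none passed, beside 7.46% of all genes. Without old AP mice 18 and 19 together the median was 0.20, 37 of 40 were above 0, none passed (beside 6.85% of all genes) and 1 had an unadjusted p under 0.05.

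Mcm6 was at 67.4 to 251 CPM in old AP mice (median 121), at 61.3 to 126 CPM in young mice (median 90.8) and at 54.8 to 133 CPM in old vehicle mice (median 106). It rose by a log2 fold change of 0.58 over young mice (SE 0.16, adjusted p = 0.0120), and 7 of 16 old AP mice lay above every young mouse. Bub1b, which encodes the spindle checkpoint kinase BubR1, was at 32.5 to 124 CPM in old AP mice (median 61.5), at 28.5 to 63.9 CPM in young mice (median 45.2) and at 22.05 to 66.6 CPM in old vehicle mice (median 46.0). It rose by 0.51 (SE 0.18, adjusted p = 0.0491), and 8 of 16 old AP mice lay above every young mouse. In both genes the other old AP mice lay within the young range. Mcm6 lost its call in 1 of 28 fits without 1 mouse, that without old AP mouse 19, where its log2 fold change was 0.47 (adjusted p = 0.0304) and so below the required size. Bub1b, just inside the threshold, kept its call in 10 of the 28. It also lost it with total counts (adjusted p = 0.0742), with no filter on low counts (adjusted p = 0.0734) and with 2 groups only (adjusted p = 0.0522).

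Without the required size of fold change, 4 members had an adjusted p under 0.05, beside 9.15% of all genes as higher, the other two being Mcm4 (0.44, adjusted p = 0.0452) and Rrm1 (0.37, adjusted p = 0.0466). Of the anchors, Ccnb1 had a log2 fold change of 0.55 (SE 0.21, adjusted p = 0.0623), Foxm1 of 0.43 (SE 0.16, adjusted p = 0.0552), Mki67 of 0.39 (SE 0.23, adjusted p = 0.231) and Top2a of 0.38 (SE 0.19, adjusted p = 0.165). Mcm2 was at 0.38 (SE 0.18, adjusted p = 0.138), Rrm2 at 0.31 (SE 0.21, adjusted p = 0.309) and E2f1 at 0.27 (SE 0.17, adjusted p = 0.271). Cdk1 (0.26, SE 0.18, adjusted p = 0.343) and Pcna (0.20, SE 0.14, adjusted p = 0.317) had the smallest fold changes of the anchors. By role, the median was highest in the 4 spindle checkpoint and anaphase genes (0.48) and the 7 replication licensing and fork genes (0.44), and lowest in the 5 kinetochore and chromosome structure genes (0.19).

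**Figure D3:**
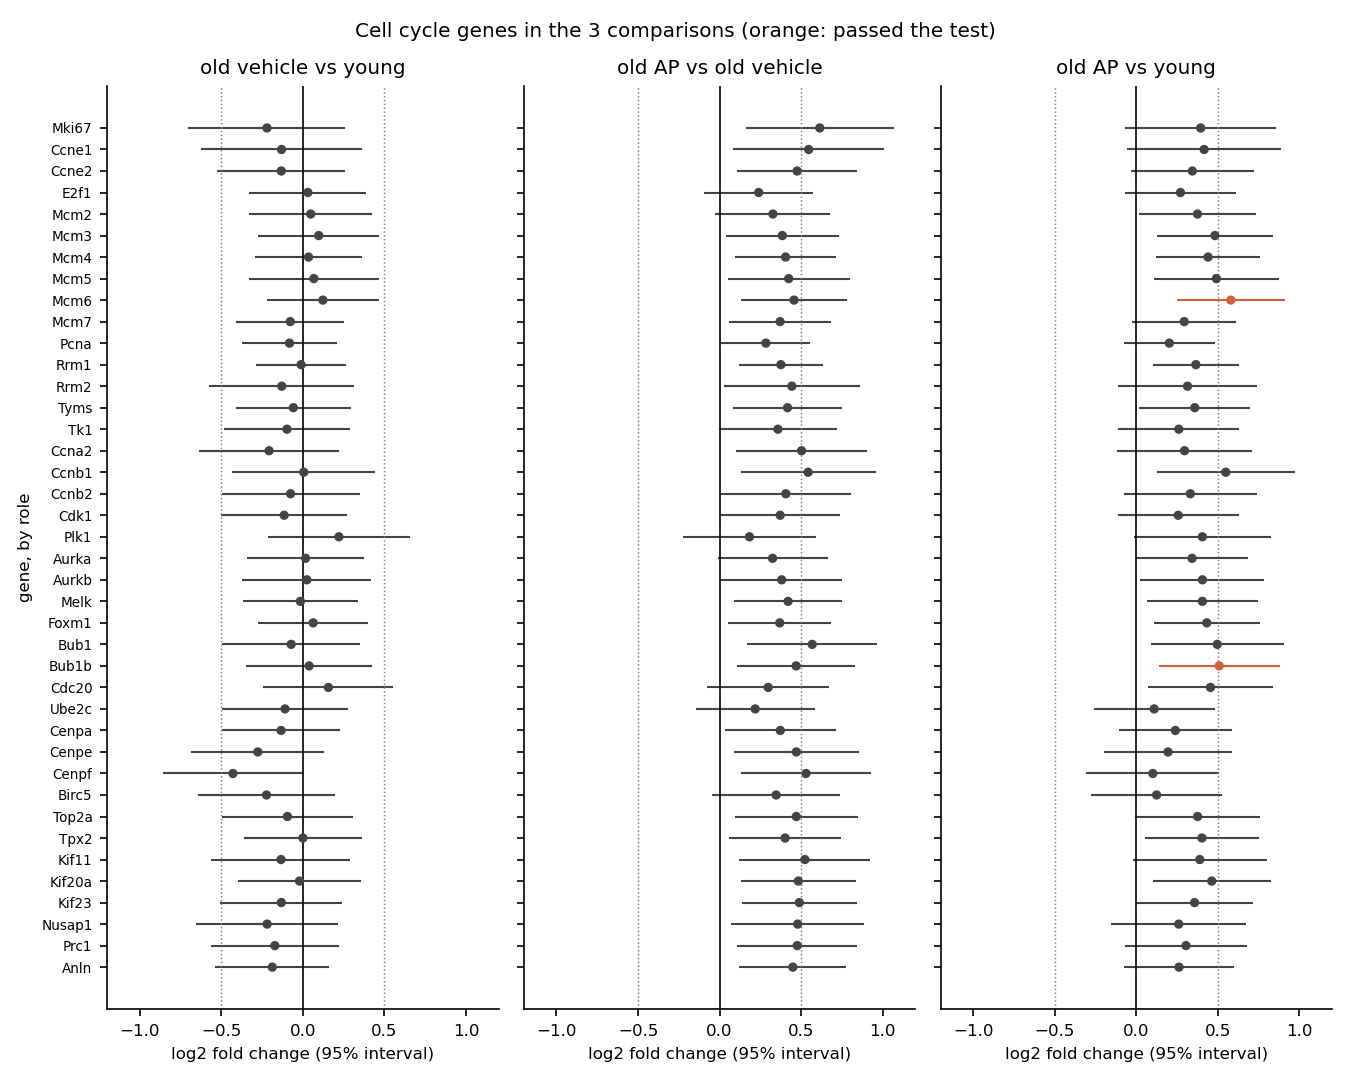
Points are log2 fold changes of the 40 genes and bars their 95% intervals, in 3 panels for old vehicle against young, old AP against old vehicle and old AP against young mice, with dotted lines at -0.5 and 0.5 and orange for genes that passed the test. Points lie on both sides of 0 in the first panel and above 0 for 40 of 40 genes in the other panels, where only Mcm6 and Bub1b in the third passed.

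A wider list of 115 further cell cycle genes was counted in the same way. None of the 115 passed between old vehicle and young mice or between old AP and old vehicle mice, where 113 of 115 were above 0 with a median of 0.41. Single mice decided the second of these counts, which was 18 without old AP mouse 9, 17 without old vehicle mouse 2, 5 without old AP mouse 10 and 1 without old AP mouse 27. Of all genes, 2.10%, 1.62%, 1.25% and 0.607% passed in these fits, beside 0.0726% with all mice. With all mice kept, some of the 115 also passed with DESeq2 and with total counts, where 1.27% and 1.70% of all genes did. Their numbers are given in the last section. The further genes below 0 between old AP and old vehicle mice were Pttg1, the securin that restrains separase until anaphase (-0.34, SE 0.14, adjusted p = 0.129), and Ccnd1, cyclin D1 (-0.17, SE 0.16, adjusted p = 0.525). Against young mice, 4 of 115 passed in old AP mice, all higher, a share near the 3.73% of all genes that did. The count was 0 without old AP mouse 19 and 12 without old AP mouse 27, beside 7.46% and 10.0% of all genes in either direction. The 4 that passed with all mice were Wee1, the kinase that restrains Cdk1 (0.57, SE 0.13, adjusted p = 0.00297), the replication initiation factor Mcm10 (0.55, SE 0.20, adjusted p = 0.0498), the chromatin remodeller Hells (0.53, SE 0.17, adjusted p = 0.0248) and Ccnd2, cyclin D2 (0.51, SE 0.13, adjusted p = 0.00710).

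Within each group, Mki67 and Mcm2 were higher in mice with higher levels of erythroid and early neutrophil markers. In bulk RNA, more cells of a type and more RNA per cell of that type cannot be told apart. These 2 genes, and no other member, were set against the summed log2 level of marker lists in each group apart, in 36 relations in all (each tested two-sided against 100000 permutations, which can give no p below 1e-05, and adjusted by Benjamini-Hochberg over the 36). All the values share the libraries' scaling. With the early neutrophil markers, Mki67 had Pearson's r of 0.92 in the 12 young mice (adjusted permutation p = 0.000320, Spearman's rho 0.89), 0.86 in the 13 old vehicle mice (adjusted permutation p = 0.000828, rho 0.82) and 0.85 in the 16 old AP mice (adjusted permutation p = 0.000320, rho 0.83). Without the 2 mice farthest from the median of the marker level, r was 0.84, 0.81 and 0.75. With the erythroid markers r was 0.93, 0.75 and 0.93 (adjusted permutation p = 0.000270, 0.00678 and 0.000120, rho 0.89, 0.65 and 0.89), and 0.91, 0.53 and 0.90 without the 2 farthest mice, so that in old vehicle mice the relation rested on mice 16 and 20 (permutation p = 0.0946 without them). Mcm2 had r of 0.97, 0.84 and 0.92 with the erythroid markers, in old vehicle mice still 0.69 without mice 16 and 20 (permutation p = 0.0199), and of 0.91, 0.73 and 0.79 with the early neutrophil markers.

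With the early B cell markers, Mki67 had r of 0.79 in young mice (adjusted permutation p = 0.00557, rho 0.76), 0.46 in old vehicle mice (adjusted permutation p = 0.162, rho 0.42) and -0.09 in old AP mice (adjusted permutation p = 0.780, rho -0.04), where it was 0.29 without mice 17 and 18, and the difference between groups was not tested. Mcm2 had r of 0.69, 0.55 and -0.25 with these markers (adjusted permutation p = 0.0230, 0.0860 and 0.400), with rho of 0.69 in old vehicle mice (adjusted permutation p = 0.0238) and r of 0.14 in old AP mice without mice 17 and 18. Old AP mice 17 and 18, which followed mouse 19 in the members' score, had the lowest early B cell sums of their group. The muscle markers, a relation added after the data had been seen, ran the other way. Mki67 had r of -0.87 with them in young mice (adjusted permutation p = 0.00111, rho -0.92), -0.52 in old vehicle mice (adjusted permutation p = 0.0998, rho -0.50) and -0.65 in old AP mice (adjusted permutation p = 0.0118, rho -0.56), where the relation rested on mice 18 and 19 (r of -0.39, permutation p = 0.169 without them). For Mcm2 and the muscle markers r was -0.86, -0.71 and -0.69 in young, old vehicle and old AP mice (adjusted permutation p = 0.00144, 0.0129 and 0.00676). Without 2 mice it was -0.68 in old vehicle mice (permutation p = 0.0232) and -0.48 in old AP mice (permutation p = 0.0814), where it again rested on mice 18 and 19. Old AP mouse 19, the highest in the members' score, had the lowest muscle sum of all mice (5008 CPM). Its endothelial sum of 270 CPM and that of old AP mouse 18 of 285 CPM were the lowest of their group (median 461 CPM), and their osteoblast sums were 5132 and 5966 CPM (group median 15180 CPM). Old AP mice 24 and 28 had lower osteoblast sums, of 3077 and 5040 CPM. At the other end, old vehicle mouse 20, next to last in the score, had the highest muscle sum (73098 CPM).

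**Figure D4:**
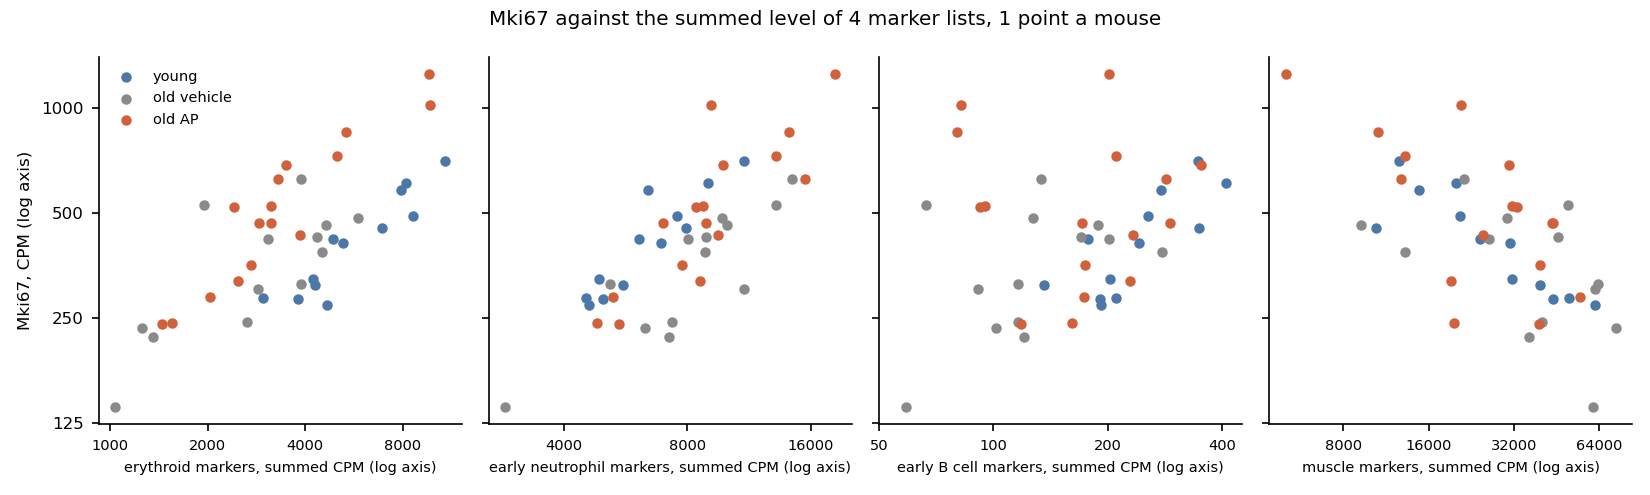
Each point is 1 mouse, with Mki67 in CPM on the vertical axis and the summed CPM of the erythroid, early neutrophil, early B cell or muscle markers on the horizontal axis (all axes logarithmic), coloured by group. Mki67 climbs with the erythroid and early neutrophil sums in all 3 groups, and lies lower in mice with a higher muscle sum. The median erythroid sum was 5050 CPM in young and 3135 CPM in old AP mice, and the median early neutrophil sum 6272 and 8812 CPM.

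Single markers of these lists passed the test as follows. Between old vehicle and young mice, where 9.06% of all genes passed, 2 of 10 erythroid markers (median log2 fold change -0.69), 6 of 10 early B cell markers (median -0.92) and 3 of 8 osteoblast markers (median -0.54) were lower, while 1 of 10 early neutrophil markers (median 0.46) and 1 of 5 muscle markers (median 0.27) were higher and none of 7 T cell markers (median 0.62) passed. The erythroid sum was 2962 to 10796 CPM in young mice (median 5050) and 1038 to 5801 CPM in old vehicle mice (median 3072), and the early neutrophil sum 4531 to 10984 CPM (median 6272) and 2882 to 14403 CPM (median 8850). No marker of these lists passed between old AP and old vehicle mice. The medians were 0.50 for erythroid, 0.54 for early B cell, 0.18 for early neutrophil and -0.58 for muscle markers. In old AP against young mice, where 8.58% of all genes passed, 5 of 10 early neutrophil markers (median 0.54) and 4 of 7 T cell markers (median 1.07) were higher, and 1 of 10 erythroid (median -0.16), 1 of 10 early B cell (median -0.38) and 6 of 8 osteoblast markers (median -0.79) were lower. Without old AP mouse 18, 3 of 10 early neutrophil markers (median 0.48) and 2 of 7 T cell markers (median 0.22) were higher, so that the T cell median rested on that mouse. In the same fit 3 of 7 T cell markers (Cd3g, Cd3e and Trac, median 0.62) were higher in old vehicle than in young mice. Their part in the members' differences was not tested beyond the fits that follow. No marker of the erythroid, early neutrophil, early B cell or muscle lists was at 0 in any mouse.

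To give the members' differences at a like level of each list, the model was fitted again with the summed log2 level of 1 list as a covariate, an alternative added once the results without it were known. The members' slopes on the covariate passed an adjusted p of 0.05 in 40 of 40 genes for each list, beside 59.4% of all genes for muscle, 52.9% for erythroid and 57.7% for early neutrophil markers. The median slopes were -0.40, 0.57 and 0.78 log2 units of the gene for each log2 unit of the list. Between old AP and old vehicle mice the members' median, 0.42 with no covariate, was 0.17 with the muscle list, 0.24 with the erythroid list and 0.28 with the early neutrophil list. No member passed in any of them, beside 0.00518%, 0.311% and 0.679% of all genes, and 37, 39 and 40 of 40 were above 0. With the early neutrophil list, 14 of 40 had an adjusted p under 0.05 at a fold change below the required size, beside 5.52% of all genes at any size, Mki67 among them (0.42, adjusted p = 0.0367).

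For age the direction depended on the list, and the list levels themselves differed with age. The median erythroid sum was 5050 CPM in young, 3072 CPM in old vehicle and 3135 CPM in old AP mice. The median early neutrophil sum was 6272, 8850 and 8812 CPM. Members that move together all shift 1 way at a like list level, so that the counts below are not separate results for 40 genes. A difference of the members and one of the list cannot be told apart here. At a like erythroid level, all 40 members were above 0 in old vehicle against young mice, with a median of 0.51, and 22 of 40 passed as higher, beside 6.30% of all genes as higher and 11.8% in either direction. At a like early neutrophil level, all 40 were below 0, with a median of -0.32, and 5 of 40 (Cenpf, Cenpe, Mki67, Nusap1 and Ccna2) passed as lower, beside 6.76% of all genes as lower and 15.8% in either direction. At a like muscle level the median was 0.10 and none passed, beside 9.16% of all genes. Mki67 had log2 fold changes of 0.52 (adjusted p = 0.00770), -0.58 (adjusted p = 0.000760) and 0.0028 (adjusted p = 0.994) in the 3 fits. Between old AP and young mice, 40 of 40 passed as higher at a like erythroid level (median 0.75), beside 10.0% of all genes as higher and 19.2% in either direction, none at a like early neutrophil level (median -0.06), beside 9.41%, and none at a like muscle level (median 0.29), beside 10.1%.

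**Figure D5:**
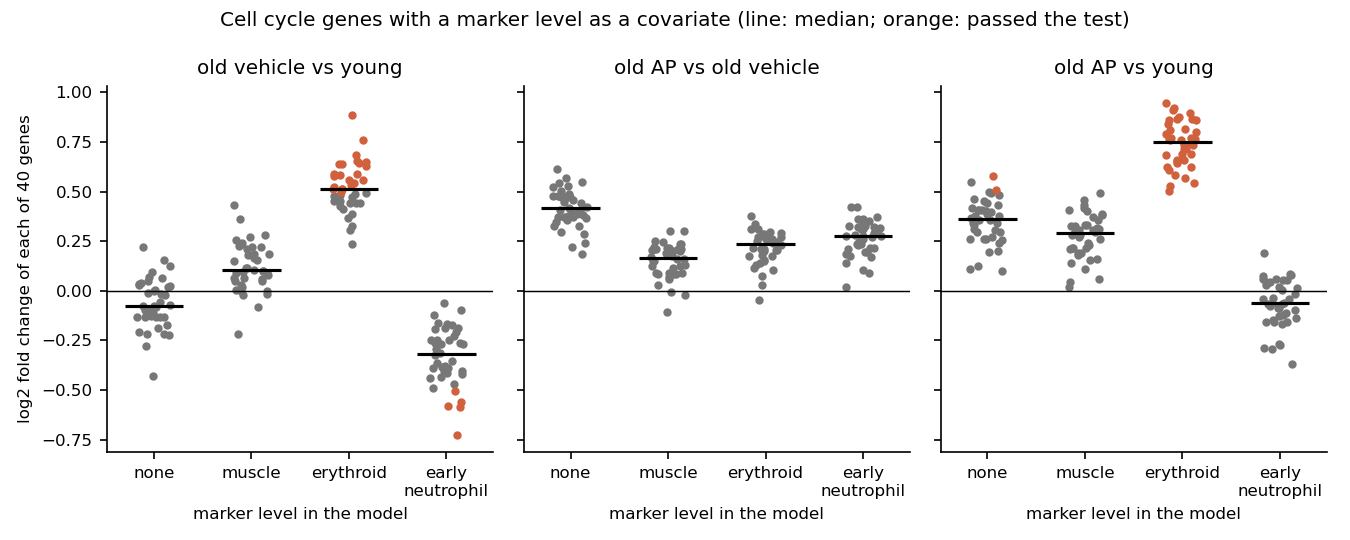
Points are log2 fold changes of the 40 genes in the 3 comparisons, fitted with no covariate or with the summed log2 level of the muscle, erythroid or early neutrophil markers in the model. Lines are medians and orange marks genes that passed the test. In the panel of old vehicle against young mice the medians are -0.08, 0.10, 0.51 and -0.32 from left to right, and in the panel of old AP against old vehicle mice they are 0.42, 0.17, 0.24 and 0.28.

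The kinase inhibitors were set against Mki67 and Mcm2 in the same way. Cdkn1a was at 39.6 to 256 CPM in old AP mice (median 115), and Mki67 had r of -0.82 with it there (adjusted permutation p = 0.000320, rho -0.84), -0.69 without mice 19 and 27. In young mice r was -0.45 (adjusted permutation p = 0.183, rho -0.49), and in old vehicle mice it was -0.58 (adjusted permutation p = 0.0649, rho -0.16) and 0.16 without mice 8 and 16. Mcm2 had r with Cdkn1a of -0.36 in young, -0.32 in old vehicle and -0.80 in old AP mice (adjusted permutation p = 0.303, 0.347 and 0.000320). In old AP mice it was -0.69 without mice 19 and 27. For Cdkn2a no relation with Mki67 or Mcm2 passed the adjustment in any group. With Mki67, r was 0.32 in young mice, -0.40 in old vehicle mice and -0.21 in old AP mice, with adjusted permutation p between 0.223 and 0.475. Without the 2 mice farthest from the median of Cdkn2a, r with Mki67 was 0.08, -0.68 and -0.62 in young, old vehicle and old AP mice (unadjusted permutation p = 0.827, 0.0166 and 0.0200), so that both old groups passed an unadjusted p of 0.05 there but not with all mice. With Mcm2 neither did, at r of -0.39 in old vehicle mice (unadjusted permutation p = 0.228) and -0.43 in old AP mice (unadjusted permutation p = 0.125).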

How the data were processed

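RNA of tibiae, centrifuged to clear marrow, was sequenced on an Illumina instrument. The authors deposited raw counts of reads per gene for the 41 mice, aligned to GRCm38 with TopHat2 2.0.6 and counted with HTSeq per the submitters' processing notes. Whether the counting used strand is not given in the sources used here, so that reads of overlapping genes on opposite strands may not be separated, and 37 mitochondrial genes were at 0 in every mouse. Mice were grouped by their labels and numbered as separate animals.

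From these counts, edgeR 4.0.16 (R 4.3.3) with TMM scaling, its filter on low counts and a model of the 3 groups gave log2 fold changes, their standard errors (the size of the log2 fold change divided by the square root of F) and quasi-likelihood p-values, adjusted by Benjamini-Hochberg over 19292 genes. Log2 CPM used a prior count of 2. Relations used 100000 permutations, and Cdkn2a and Cdkn1a levels had 0.1 CPM added before the log. Genes named with full values were the members that passed and 9 anchors (Mki67, Top2a, Ccnb1, Cdk1, Mcm2, Pcna, Rrm2, E2f1 and Foxm1), and for the 115 further genes the 3 largest changes among those that passed. Plk1, Cenpf, Rrm1, Mcm4, Ccnd2, Pttg1 and Ccnd1 and the genes named in the fits without 1 mouse were chosen after their values were seen. The members and lists were chosen with earlier results of these data known. Alternatives were DESeq2 1.42.0, its size factors or total counts in edgeR, no filter on low counts, 2 groups only, the adjusted p alone and, for the members, leaving out each mouse in turn. Marker levels as covariates, the muscle relations, the marker lists without old AP mouse 18, the fit without old AP mice 18 and 19 and the further genes without 1 mouse (other than old vehicle mouse 16) were alternatives added later, with the data in view.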

Additional observations from a re-analysis of the deposited data

How the results depend on the processing

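The count of members that passed between old vehicle and young mice was 0 under DESeq2, both other scalings and no filter. It was also 0 with 2 groups only, the adjusted p alone and each fit without 1 mouse. Of all genes, 6.01% (no filter) to 19.4% (adjusted p alone) passed in these fits. The count of members was 22 with the erythroid and 5 with the early neutrophil level as a covariate, beside 11.8% and 15.8% of all genes. Between old AP and old vehicle mice it was 0 to 4 in the fits without 1 mouse and 0 in the other alternatives run, beside 0.00% (no filter) to 2.10% (without old AP mouse 9) of all genes. Between old AP and young mice it was 1 (Mcm6, without Bub1b) with total counts (beside 8.02% of all genes in either direction), with no filter on low counts (5.52%) and with 2 groups only (8.57%). It was 3 with DESeq2, which added Ccnb1 (8.68%), 4 with the adjusted p alone (17.8%) and 0 to 7 in the fits without 1 mouse. With the muscle, erythroid and early neutrophil level as a covariate it was 0, 40 and 0, beside 10.1%, 19.2% and 9.41%. It was 0 without old AP mice 18 and 19 together, as was that of the further genes, beside 6.85% of all genes. It was 0 without old AP mouse 19, 7 without old AP mouse 9 or 27, 6 without young mouse 39, 5 without old AP mouse 10 or 12 and 4 without young mouse 34. The share of all genes that passed in these fits ran from 7.46% without old AP mouse 19 to 10.0% without old AP mouse 27, against 8.58% with all mice. The count of members was 1 without old AP mice 3, 5, 17, 18, 24, 25, 28 or 29 and without young mice 30, 31, 35, 36, 37, 38, 40 or 41. Of all genes, 7.36% (without old AP mouse 18) to 8.43% (without old AP mouse 29) passed there. Of the further genes, 7 with DESeq2 and 11 with total counts passed between old AP and old vehicle mice (beside 1.27% and 1.70% of all genes, against 0.0726%), and 0 to 18 in the fits without 1 mouse. For old AP against young mice their count was 2 with no filter (beside 5.52% of all genes), 10 with the adjusted p alone (17.8%) and 0 to 12 in the fits without 1 mouse. With the muscle, erythroid and early neutrophil level it was 1, 99 and 0, beside 10.1%, 19.2% and 9.41%. Between old vehicle and young mice it was 56 and 11 with the erythroid and early neutrophil level, beside 11.8% and 15.8%. Among the further genes between old AP and young mice, the count without 1 mouse was 0 without old AP mouse 19, 1 without old AP mouse 17 or 18, 2 without old AP mouse 4, 5, 24 or 25 or young mouse 31, 37 or 40, 7 without old AP mouse 11, 9 without old AP mouse 12 or young mouse 39, 10 without old AP mouse 10, 11 without old AP mouse 9 or young mouse 34 and 12 without old AP mouse 27. Of all genes, 7.36% (without old AP mouse 18) to 10.0% (without old AP mouse 27) passed in these fits. The cause of these differences was not tested.

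Between old vehicle and young mice, log2 fold changes near 0 changed sign with total counts, to -0.061 for Ccnb1, -0.019 for Mcm2, -0.039 for E2f1, -0.0023 for Foxm1 and -0.028 for Bub1b. Total counts moved the median of all genes to 0.099 between old AP and old vehicle mice and to -0.062 between old vehicle and young mice. In fits without 1 mouse, Ccnb1 ran from -0.078 to 0.073, E2f1 from -0.027 to 0.11 and Bub1b from -0.020 to 0.10. Without the 2 mice farthest from the median, r of Mki67 changed sign to 0.29 with early B cell markers in old AP mice and to 0.16 with Cdkn1a in old vehicle mice, and r of Mcm2 changed sign to 0.14 with early B cell markers in old AP mice, to -0.39 and -0.43 with Cdkn2a in old vehicle and old AP mice and to 0.14 with Cdkn1a in old vehicle mice. No paired analysis was possible because the replicate numbers only name the mice and no label ties mice of different groups.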
